A study of Mus musculus with 30 samples.

Results

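Pou5f1, Nanog, Sox2, Sall4, Lin28a and Utf1, 6 of the 55487 genes counted in mouse embryonic stem cell libraries, were followed across 18 RNA libraries and 6 maps of the histone mark H3K9me3. The 6 were listed by name as core pluripotency genes, and each was matched to a single Ensembl gene. All 6 passed the filter on low counts in every comparison.

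Embryonic stem cells keep the ability to form every tissue of the embryo through a small network of transcription factors. OCT4 (encoded by Pou5f1) and SOX2 bind DNA side by side on a joined octamer and SOX element, and with NANOG they activate one another and many other stem cell genes. SALL4 is a zinc finger protein that binds in the same network. UTF1 is a chromatin protein and a known target of OCT4 and SOX2. LIN28A is an RNA-binding protein that blocks the maturation of the let-7 microRNAs. Pluripotency factors are lost as cells differentiate, whereas Lin28a and Sall4 also remain on in many early embryonic progenitors.

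The study asks how ETV2 (also named ER71), an ETS-family factor that starts the blood and endothelial lineages, works with the histone demethylase KDM4A, which acts on methylated lysine 9 of H3. The RNA groups held 3 libraries each. In experiment 1, the iETV2 line was sampled with doxycycline (DOX), which switches on Etv2, and without it. In experiment 2, the line iETV2-KDM4A (H188A), called the H188A line here, was sampled with and without DOX. It is named for a KDM4A variant with a changed residue in the iron-binding catalytic site, and both of its groups belong to the same line. Experiment 3 compared libraries labelled KDM4A/4C DKO, a double knockout, with libraries labelled Control, for which no line or treatment is given. In experiment 4, H3K9me3 was mapped by ChIP-seq in 3 libraries with DOX and 3 without. The ChIP samples carry embryoid body names (EB) and no cell line, and the 3 DOX libraries have different names (DOX-D2, DOX-D3 and Er71-Flag-DOX-D2). The dose and length of DOX treatment, the clones behind each line and whether libraries came from separate cultures are not given in the sources used here, so each p-value measures only the spread between these libraries.

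RNA libraries held 40334911 to 68970038 counts. Levels are given in CPM, the counts scaled to a common library total. Log2 changes ± SE come from edgeR's quasi-likelihood test, and a gene is called where the p-value adjusted over all genes tested is under 0.05. Etv2 was at 18.1 to 19.7 CPM in iETV2 with DOX against 2.73 to 3.05 CPM without, and at 11.5 to 18.6 CPM in the H188A line with DOX against 0.139 to 0.669 CPM without. In the libraries labelled DKO, Kdm4a was at 42.0 to 46.9 CPM against 53.9 to 55.7 CPM in their controls. Kdm4c was higher there, at 42.7 to 48.0 CPM against 29.6 to 32.2 CPM, so the RNA level of Kdm4c goes against the label. A gene's total count cannot show a small deletion, and the group is therefore named by its label throughout.

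RefSeq (GRCm38.p6) gives a promoter for 5 of the 6, all but Sall4, and the 250 bases before the first listed start site are printed from 5′ to 3′ for the 4 genes that move together in the libraries labelled DKO and for Lin28a, which moves the other way. Capitals mark matches to the searched motifs on either strand. The window of Lin28a lies inside the annotated gene (chr4:134003330-134019196), since the listed start site is downstream of the gene's 5′ end, whereas the other 4 windows end where the gene begins.

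Pou5f1 promoter (chr17:35505782-35506031, plus strand): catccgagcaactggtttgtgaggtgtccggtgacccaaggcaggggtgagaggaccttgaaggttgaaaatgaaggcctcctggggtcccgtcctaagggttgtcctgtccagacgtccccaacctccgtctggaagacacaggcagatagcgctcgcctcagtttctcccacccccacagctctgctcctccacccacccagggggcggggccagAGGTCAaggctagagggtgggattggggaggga
Nanog promoter (chr6:122707239-122707488, plus strand): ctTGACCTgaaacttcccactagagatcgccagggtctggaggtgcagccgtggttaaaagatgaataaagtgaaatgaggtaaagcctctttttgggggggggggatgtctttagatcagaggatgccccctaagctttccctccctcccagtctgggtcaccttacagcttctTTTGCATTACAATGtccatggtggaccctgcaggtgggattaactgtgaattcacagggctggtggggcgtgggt
Sox2 promoter (chr3:34649745-34649994, plus strand): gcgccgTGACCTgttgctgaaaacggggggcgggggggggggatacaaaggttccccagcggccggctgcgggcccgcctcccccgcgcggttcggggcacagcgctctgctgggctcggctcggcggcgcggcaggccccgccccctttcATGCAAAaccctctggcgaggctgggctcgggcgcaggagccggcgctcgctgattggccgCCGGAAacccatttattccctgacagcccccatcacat
Utf1 promoter (chr7:139943606-139943855, plus strand): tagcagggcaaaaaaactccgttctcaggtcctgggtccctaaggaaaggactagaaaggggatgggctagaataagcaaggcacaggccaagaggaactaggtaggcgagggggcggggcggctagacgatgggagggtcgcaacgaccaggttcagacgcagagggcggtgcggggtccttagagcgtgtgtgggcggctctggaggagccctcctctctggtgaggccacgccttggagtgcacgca
Lin28a promoter (chr4:134018817-134019066, minus strand): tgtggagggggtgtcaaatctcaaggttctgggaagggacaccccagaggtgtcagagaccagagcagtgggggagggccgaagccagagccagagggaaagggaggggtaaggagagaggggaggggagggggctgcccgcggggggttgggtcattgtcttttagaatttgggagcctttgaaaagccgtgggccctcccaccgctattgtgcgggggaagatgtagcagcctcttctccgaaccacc

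The Nanog promoter holds the joined element TTTGCATTACAATG, an octamer core read on the opposite strand followed by a SOX motif, with its first base 75 bases before the start site. The joined motif, searched as TTTGCATNACAATG, was found in 2 of 32851 promoters (0.00609%), both of them windows of Nanog's own pair of start sites. Sox2 holds the octamer core ATGCAAA 99 bases before its start, present in 4.12% of all promoters. It also holds the ETS core CCGGAA 38 bases before it, present in 12% of promoters. Pou5f1 holds the nuclear receptor core AGGTCA 33 bases before its start, and 14% of promoters have that motif on some strand, as do Nanog and Sox2 in the form TGACCT at 248 and 244 bases. Utf1 and Lin28a have none of the searched letters in these windows, which also covered the full octamer ATGCAAAT (1.6% of promoters) and the SOX core AACAAT (9.42%). ATGCAAA, the joined motif and AGGTCA were added after the sequences had been read. A match describes letters and shows no binding.

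**Figure D1:**
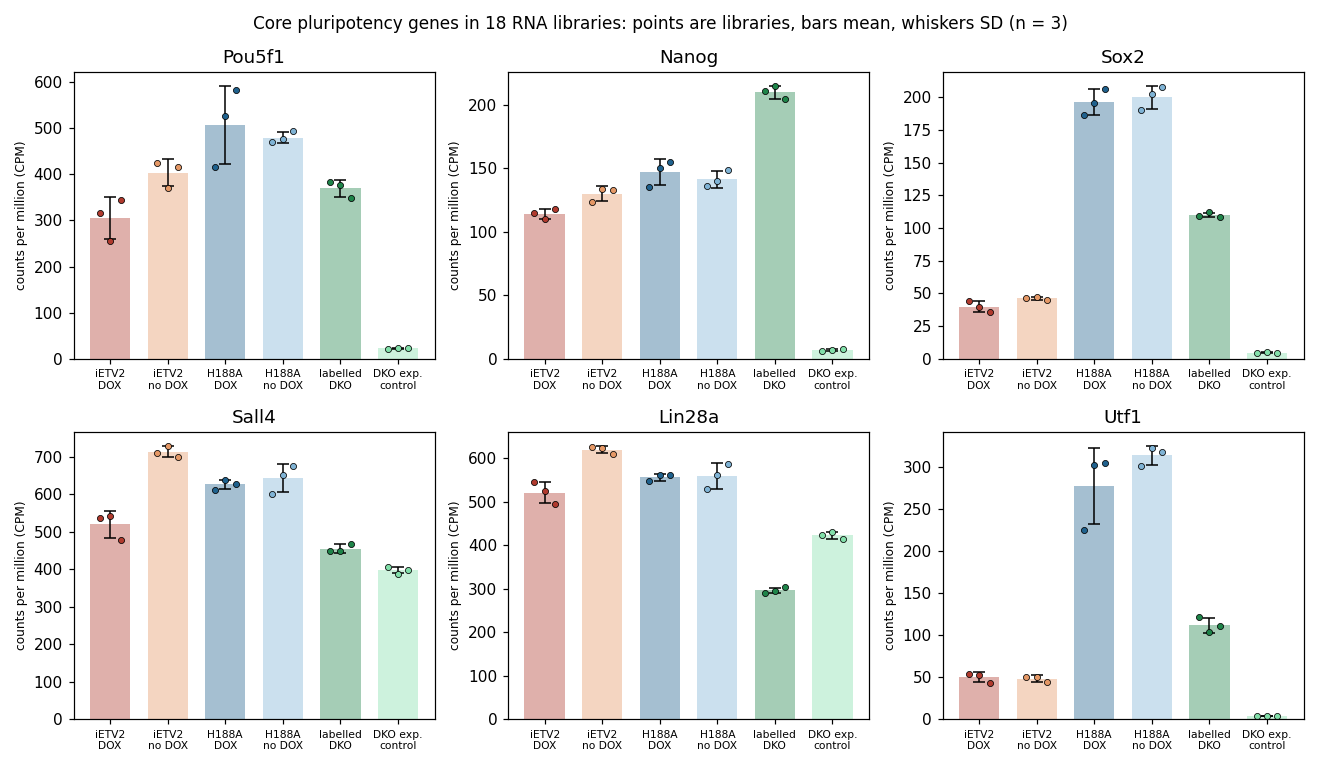
Levels of the 6 core pluripotency genes in each of the 18 RNA libraries, in CPM on the vertical axis, with 1 panel per gene and its own scale. Points are libraries, bars are group means and whiskers are the SD of 3 libraries. Pou5f1, Nanog, Sox2 and Utf1 are lowest in the controls of the DKO experiment, while Sall4 and Lin28a stay above 290 CPM in all 18 libraries.

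The members differed in how far their levels varied between the groups. Between the highest and the lowest group mean, Utf1 spanned 94.0-fold, Sox2 43.4-fold, Nanog 30.1-fold and Pou5f1 22.3-fold. Lin28a spanned 2.09-fold and Sall4 1.80-fold. The lowest group was the control of the DKO experiment for every member except Lin28a, which was lowest in the libraries labelled DKO.

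The order of the other groups differed by gene. Pou5f1 was highest in the H188A line with DOX (508 ± 84.7 CPM) and without it (480 ± 12.7 CPM), which overlap, then in iETV2 without DOX (404 ± 29.0 CPM) and the libraries labelled DKO (369 ± 17.8 CPM), which also overlap. Nanog was highest in the libraries labelled DKO (210 ± 5.11 CPM), apart from all other groups. Sox2 and Utf1 shared an order of groups down to the libraries labelled DKO: both were highest in the H188A line, where the groups with and without DOX overlap, and next in the libraries labelled DKO. Sall4 and Lin28a were highest in iETV2 without DOX, at 713 ± 14.8 and 620 ± 8.75 CPM (SD, n = 3 for each). With TMM-scaled library sizes, the highest group changes for Sox2 and Utf1, where the H188A line with DOX passes that without. The lowest group was the same for all 6.

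The comparison of the libraries labelled DKO with their controls asks what loss of the demethylases does to the cells. It gave the widest differences among the members: Pou5f1, Nanog, Sox2 and Utf1 were 16.2 to 33.4 times higher by CPM in the libraries labelled DKO. Lin28a was lower and Sall4 did not pass the test. Of the 6 members, 4 were called higher and 1 lower. Of all 20426 genes tested, 69.3% were called, 35.6% higher and 33.7% lower, so a call alone says little here. By size, the log2 changes of Pou5f1 and Utf1 lay at percentiles 97.5 and 99.1 of all genes tested, with Sox2 and Nanog between them. The members' median log2 change was 4.18, against 0.04 over all genes.

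Pou5f1, which encodes OCT4, had 383, 377 and 349 CPM in the libraries labelled DKO, against 22.3, 23.3 and 22.9 CPM in their controls. All 3 were far above all 3 controls, a log2 change of 3.90 ± 0.05 (edgeR, adjusted p = 2.29e-24). Nanog, the homeodomain factor of the network, had 211, 215 and 205 CPM in the libraries labelled DKO, against 6.41, 6.70 and 7.83 CPM in controls. The groups were as clearly apart, with a log2 change of 4.79 ± 0.05 (edgeR, adjusted p = 1.49e-24).

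Sox2, the DNA-binding partner of OCT4, had 109, 112 and 108 CPM in the libraries labelled DKO, against 4.20, 5.12 and 4.49 CPM in controls. Its log2 change was 4.46 ± 0.06 with no overlap. Utf1 had 121, 103 and 111 CPM in the libraries labelled DKO, against 3.23, 3.55 and 3.26 CPM in controls. It gave a log2 change of 4.94 ± 0.07, the largest of the 6 in this comparison, and its groups were apart as well.

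Sall4 had 450, 448 and 468 CPM in the libraries labelled DKO, against 404, 388 and 398 CPM in controls. The CPM do not overlap, but after TMM scaling the log2 change was only 0.07 ± 0.04 (edgeR, adjusted p = 0.0768), and it was called without control replicate 1 (0.10, adjusted p = 0.0383). Lin28a had 290, 295 and 303 CPM in the libraries labelled DKO, against 423, 429 and 414 CPM in controls. All 3 were below all 3 controls, and the gene fell by 0.64 ± 0.04 on the log2 scale (edgeR, adjusted p = 1.9e-12). The changes of Pou5f1 and Lin28a thus ran in opposite directions in the same libraries. In bulk RNA, fewer cells that express a gene and less of its RNA per cell cannot be told apart.

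The proportions among the members changed as well. Nanog had 57.0 ± 1.81 counts per 100 of Pou5f1 in the libraries labelled DKO, against 30.6 ± 3.13 in controls (SD, n = 3 each). Utf1 had 30.3 ± 2.43 per 100 of Pou5f1, against 14.7 ± 0.507. Sall4 had 154 ± 1.68 per 100 of Lin28a, against 94.0 ± 3.15. Each of these ratios was apart between the groups, and none was tested.

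Other genes of the network were higher along with Pou5f1 in the libraries labelled DKO. All 25 of the other core network and OCT4 partner genes were called, 24 higher and 1 lower, with a median log2 change of 3.36. Among them were Spp1, which encodes osteopontin (4.97 ± 0.06), and Tdgf1, a NODAL co-receptor (3.36 ± 0.04). Nr6a1, a nuclear receptor that represses Pou5f1 during differentiation, was the one that fell, by 0.28 ± 0.04. Of the 17 naive pluripotency factors, which mark the earliest stem cell state, 14 rose and 2 fell (median 3.94). The 3 with the smallest adjusted p were Tfcp2l1 (4.94 ± 0.05), Esrrb (5.62 ± 0.06) and Klf2 (4.17 ± 0.06), all transcription factors of that state. Tbx3 fell by 0.61 ± 0.04 and Stat3, the effector of LIF signalling, fell by 0.54 ± 0.04.

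Genes of the later, formative and primed epiblast were higher too. Of 11 tested, 8 rose and 2 fell (median 1.56). Otx2, a homeobox factor of the primed state, was at 103 ± 3.88 CPM in the libraries labelled DKO and 1.88 ± 0.253 CPM in controls (SD, n = 3 each). Zic2 rose by 2.68 ± 0.04 and Dnmt3b, a DNA methyltransferase, by 1.56 ± 0.04, while Sox4 fell by 0.52 ± 0.05 and Cdh2, N-cadherin, fell by 0.30 ± 0.03.

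Of the 12 genes of the LIN28 and let-7 axis, 9 fell and 3 rose (median -0.48), beside 33.7% lower and 35.6% higher among all genes tested. Arid3a fell by 1.65 ± 0.04, Igf2bp3 fell by 1.40 ± 0.04 and Hmga2 fell by 1.24 ± 0.04, and all 3 are known let-7 targets. Mycn rose by 0.62 ± 0.04, Dis3l2, the nuclease that degrades uridylated pre-let-7, by 0.43 ± 0.05, and Dicer1 by 0.10 ± 0.04. Among the paralogs of the members, Lin28b fell by 0.81 ± 0.05, Sall3 fell by 1.98 ± 0.05 and Sall2 fell by 0.31 ± 0.05. Sall1 rose by 0.94 ± 0.04, the POU factor Pou3f1 by 2.67 ± 0.12 and Sox15 by 2.18 ± 0.13. In all, 6 paralogs rose and 3 fell of 11 tested (median 0.39).

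**Figure D2:**
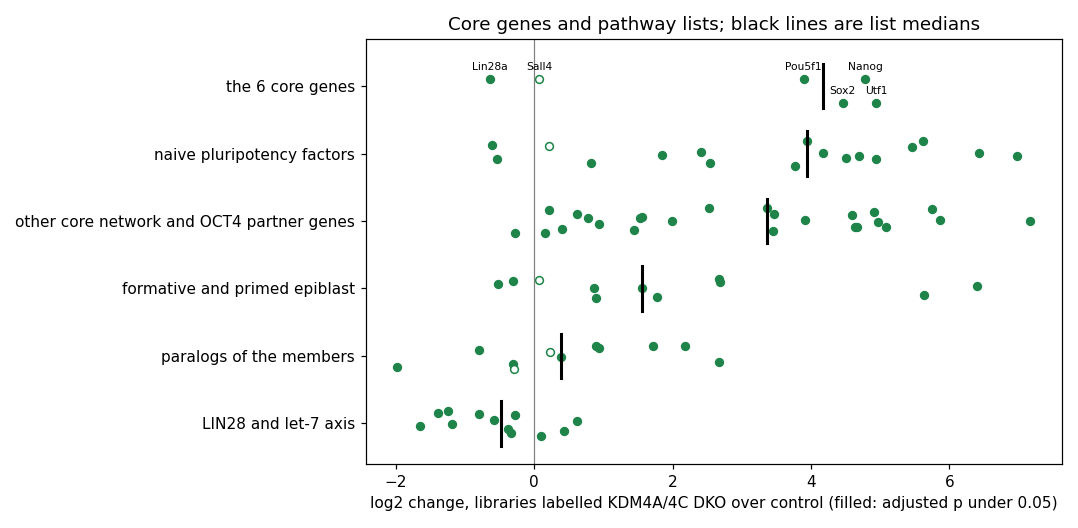
Log2 change in libraries labelled KDM4A/4C DKO over their controls (horizontal axis) for the 6 core genes and 5 lists of related genes, 1 point per gene, filled where the adjusted p is under 0.05. Black lines are medians, 4.18 for the core genes, 3.94 for the naive list and -0.48 for the LIN28 and let-7 list.

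Markers of other cell types differed between these groups. The 6 blood markers summed to 34.6 to 35.3 CPM in the libraries labelled DKO, against 1236 to 1290 CPM in controls, and all 6 fell. The 6 endothelial markers, all lower, summed to 123 to 126 CPM against 572 to 580 CPM, and the 8 fibroblast or feeder markers, 6 lower and 2 higher, to 48.7 to 51.6 CPM against 513 to 522 CPM. Col1a1 held most of the fibroblast sum in controls, at 393 CPM against 13.8 CPM in the libraries labelled DKO. Dcn and Lum were under 1 CPM in both groups. The primitive streak and mesoderm markers summed to 822 to 841 CPM against 259 to 263 CPM, with 5 of 7 higher and 1 lower. Endoderm markers summed to 108 to 113 CPM against 138 to 143 CPM, with 5 of 6 tested lower. All 8 embryonic stem cell markers, of which 3 are the members Pou5f1, Nanog and Sox2, rose, and they summed to 2273 to 2349 CPM against 142 to 153 CPM. In controls Zfp42, a marker of naive stem cells, was under 1 CPM, so these libraries, although labelled as embryonic stem cells, show little of the stem cell markers and much of the blood ones. The germ cell list, a lineage that also expresses several of the members, summed to 37.0 to 39.1 CPM against 9.57 to 10.7 CPM, with all 7 higher. Trophoblast summed to 40.9 to 43.8 CPM against 7.06 to 8.96 CPM, with 2 of 3 tested higher. Tfap2c, at 37.8 CPM against 5.43 CPM, held most of that sum, and Elf5, Tpbpa and Prl3d1 were under 1 CPM in both groups. Neuroectoderm summed to 76.4 to 81.1 CPM against 53.1 to 56.7 CPM, with 4 of 6 tested higher. Nes and Tubb3 held most of the neuroectoderm sum. The part of these markers in the members' changes was not tested.

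DOX in iETV2 asks what induced ETV2 does to these cells. Without DOX, the iETV2 libraries, labelled as embryonic stem cells, had primitive streak and mesoderm markers that summed to 1124 to 1189 CPM, beside 949 to 1006 CPM for the embryonic stem cell markers. Pou5f1, Sall4 and Lin28a fell modestly, Nanog and Sox2 lay lower without passing the test, and Utf1 overlapped between the groups. None of the 6 was called higher. The 3 called members compare with 27% of all 22025 genes tested, and the 3 called lower with 13.3% called lower. The members' median log2 change was -0.22, against 0.00 over all genes.

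Pou5f1 had 317, 256 and 344 CPM in iETV2 with DOX, against 424, 371 and 417 CPM without. All 3 DOX libraries were below all 3 without, and the gene fell by 0.39 ± 0.09 on the log2 scale (edgeR, adjusted p = 0.00417). Sall4 had 538, 542 and 478 CPM with DOX, against 710, 729 and 700 CPM without. It was apart as well and fell by 0.44 ± 0.08 (edgeR, adjusted p = 0.000345), the largest fall of the 6 in this comparison. Lin28a had 544, 524 and 495 CPM with DOX, against 625, 624 and 609 CPM without. It fell by 0.24 ± 0.07 (edgeR, adjusted p = 0.0227), and the call was lost without iETV2 control replicate 1 (adjusted p = 0.124) or replicate 2 (adjusted p = 0.0874), and with no filter on low counts (adjusted p = 0.516).

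Nanog had 115, 110 and 118 CPM in iETV2 with DOX, against 124, 134 and 133 CPM without. Sox2 had 44.0, 39.7 and 35.6 CPM with DOX, against 46.7, 47.2 and 45.0 CPM without. Neither gene's libraries overlapped, but the log2 changes of -0.18 ± 0.07 (edgeR, adjusted p = 0.0607) and -0.21 ± 0.09 (edgeR, adjusted p = 0.0954) missed the threshold. The replicate numbers were taken to pair these libraries, although DOX replicate 1 was more like control replicate 2 than control replicate 1. With the replicate number as a block, Nanog (-0.18, edgeR, adjusted p = 0.00145) and Sox2 (-0.21, edgeR, adjusted p = 0.00224) were both called. In that blocked fit 5 of 6 members were lower, and 8380 of 22025 genes were called, 4029 of them lower. Without the block, Nanog was called once DOX replicate 1 (adjusted p = 0.0435) or 3 (adjusted p = 0.0143) was left out, and Sox2 without DOX replicate 1 (adjusted p = 0.0155). Nanog was also called with DESeq2's size factors (edgeR, adjusted p = 0.0476) and with DESeq2 (adjusted p = 0.00922). A filter of 5 CPM in 3 libraries called both Nanog (edgeR, adjusted p = 0.00491) and Sox2 (edgeR, adjusted p = 0.0163). Neither was called with no filter on low counts or with all 18 libraries in 1 fit. Utf1 had 54.0, 52.3 and 43.5 CPM with DOX, against 50.5, 50.4 and 44.2 CPM without. These ranges overlap almost fully (log2 change 0.06 ± 0.10, edgeR, adjusted p = 0.749).

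The rest of the network did not move as one in iETV2 with DOX. Of the 17 naive factors, 12 rose and none fell, with a median log2 change of 1.03. Tbx3, a T-box factor of naive stem cells that mesoderm also uses, was at 139 ± 11.9 CPM with DOX and 5.57 ± 0.637 CPM without (SD, n = 3 each). Dppa5a rose by 1.59 ± 0.08 and Zfp42 by 1.31 ± 0.07. Of the formative and primed genes, 8 of 12 fell and 2 rose (median -0.96). Fgf5, the classic marker of the primed epiblast, was at 43.7 ± 2.03 CPM with DOX and 136 ± 3.83 CPM without. Pou3f1 fell by 2.50 ± 0.11 and Foxd4 fell by 5.43 ± 0.27, while Lef1 (0.54 ± 0.08) and Cdh2 (0.40 ± 0.08) rose.

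The other core and OCT4 partner genes were split in iETV2, with 9 higher, 10 lower and 6 not passing the test (median -0.0048). Dppa4 rose by 1.79 ± 0.09, Dppa2 by 1.45 ± 0.09 and Spp1 by 1.27 ± 0.09, the first 2 being chromatin proteins that act together. Lefty1, a NODAL antagonist, fell by 1.00 ± 0.07, Dnmt3b fell by 0.87 ± 0.07 and Nr6a1 fell by 0.86 ± 0.07. In the LIN28 and let-7 axis, Hmga2 rose by 0.95 ± 0.08 and Igf2bp2 fell by 0.85 ± 0.07, and the other 10 of 12 did not pass (median 0.08). Among the paralogs, 7 of 12 fell and 1, Sall3, rose (0.91 ± 0.09), with a median of -0.64. Besides Pou3f1, those with the smallest adjusted p were Sall1, which fell by 0.72 ± 0.08, and Sall2, which fell by 0.59 ± 0.07.

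Markers of other cell types moved beside these changes. The 6 endothelial markers, all higher, summed to 392 to 403 CPM in iETV2 with DOX, against 15.5 to 19.9 CPM without, and the 6 blood markers, all higher, to 332 to 353 CPM against 12.6 to 15.6 CPM. Primitive streak markers summed to 1380 to 1442 CPM against 1124 to 1189 CPM, 5 of 7 higher and 1 lower. Fibroblast markers summed to 66.1 to 71.2 CPM against 28.6 to 41.0 CPM, 3 of 7 tested higher and 2 lower. Endoderm markers summed to 201 to 210 CPM against 218 to 236 CPM, with 3 of 7 tested higher and 2 lower (median log2 change 0.47). Neuroectoderm markers summed to 58.1 to 63.6 CPM against 105 to 113 CPM, with 1 of 5 tested higher and 3 lower. Trophoblast markers summed to 16.3 to 21.5 CPM against 21.7 to 25.8 CPM, with 1 of 4 tested higher and 2 lower. Germ cell markers summed to 33.3 to 34.1 CPM against 30.7 to 33.1 CPM, with 5 of 7 higher and 1 lower (median 1.08). The 8 embryonic stem cell markers, 3 of them members, summed to 986 to 1100 CPM with DOX against 949 to 1006 CPM without, with 4 higher and 1 lower. Their part in the members' changes was not tested.

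In the H188A line, libraries with DOX were compared with those without. No member passed the test with edgeR's quasi-likelihood test or with DESeq2, 0 of 6, and none had an unadjusted p under 0.05. Of all 21086 genes tested, 3.02% were called, 2.22% higher and 0.801% lower. Pou5f1 had 416, 526 and 583 CPM with DOX, against 469, 477 and 494 CPM without, and the lowest and highest libraries were both from the DOX group. Its log2 change was 0.13 ± 0.10 (edgeR, adjusted p = 0.481).

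Nanog had 135, 150 and 155 CPM in the H188A line with DOX, against 136, 140 and 148 CPM without (log2 change 0.10 ± 0.07). Sox2 had 187, 196 and 206 CPM with DOX, against 190, 202 and 207 CPM without (0.02 ± 0.06). Both ranges overlap almost fully. Sall4 had 612, 638 and 628 CPM with DOX, against 602, 651 and 675 CPM without (0.01 ± 0.06). Lin28a had 547, 561 and 561 CPM with DOX, against 528, 562 and 587 CPM without (0.04 ± 0.06). In both genes the libraries without DOX held the lowest and the highest value. Utf1 had 225, 302 and 305 CPM with DOX, against 302, 323 and 319 CPM without (-0.13 ± 0.10). DOX replicate 1 stood apart in Utf1 and was lowest in Pou5f1.

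That library also held the most endoderm marker RNA. The 8 endoderm markers summed to 410 to 861 CPM in the H188A line with DOX, the highest sum being DOX replicate 1, against 529 to 548 CPM without. Cubn alone was at 315 to 656 CPM with DOX and 418 to 425 CPM without. With DOX replicate 1 left out, the log2 change of Utf1 was 0.01 and that of Pou5f1 was 0.27, and again no member was called. Olfactory receptor RNA, which varied between these libraries, summed to 34.8 to 92.6 CPM with DOX against 49.1 to 598 CPM without. With that sum as a covariate no member was called either. Endothelial markers summed to 195 to 199 CPM with DOX against 92.1 to 101 CPM without, 5 of 6 of them higher, and blood markers to 36.3 to 37.8 CPM against 21.9 to 23.7 CPM, 2 of 5 tested higher.

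In the related lists of the H188A line, the calls compare with 3.02% of all genes tested. Klf5, a naive factor, fell by 0.25 ± 0.05 and Etv4, an ETS factor downstream of FGF signalling, fell by 0.47 ± 0.08, each the only call of its list, of 17 and 25 genes. Arid3a rose by 0.40 ± 0.06, the only call among 12 genes of the LIN28 and let-7 axis. Among 12 paralogs Sall3 rose by 0.37 ± 0.07, Pou3f3 fell by 1.74 ± 0.29 and Pou3f2 fell by 1.72 ± 0.30. None of the 12 formative and primed genes was called by edgeR.

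The response to DOX was then compared between the lines as an interaction, the log2 change in the H188A line minus that in iETV2. It was called for Pou5f1, at 0.53 ± 0.16 (edgeR, adjusted p = 0.0378), and for Sall4, at 0.46 ± 0.12 (edgeR, adjusted p = 0.0149). These 2 of 6 members compare with 14.4% of all 25516 genes tested, 8.22% with a higher and 6.2% with a lower response to DOX in the H188A line. The differences of Nanog (0.28 ± 0.11), Lin28a (0.28 ± 0.11), Sox2 (0.23 ± 0.13) and Utf1 (-0.19 ± 0.17) did not pass. The median of all genes was -0.13 here and that of the members 0.28. Of 12 fits that each left out 1 library, 6 kept Pou5f1 and 7 kept Sall4, and line and experiment cannot be told apart. Pou5f1 was lost without iETV2 control replicate 1, iETV2 DOX replicate 2, H188A control replicate 1 or 2, or H188A DOX replicate 2 or 3 (adjusted p = 0.0655 to 0.122). Sall4 was lost without iETV2 control replicate 1 or 2, H188A control replicate 2, or H188A DOX replicate 1 or 3 (adjusted p = 0.0531 to 0.138). Without H188A control replicate 3, Nanog (adjusted p = 0.0342) and Lin28a (adjusted p = 0.0444) were called too.

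**Figure D3:**
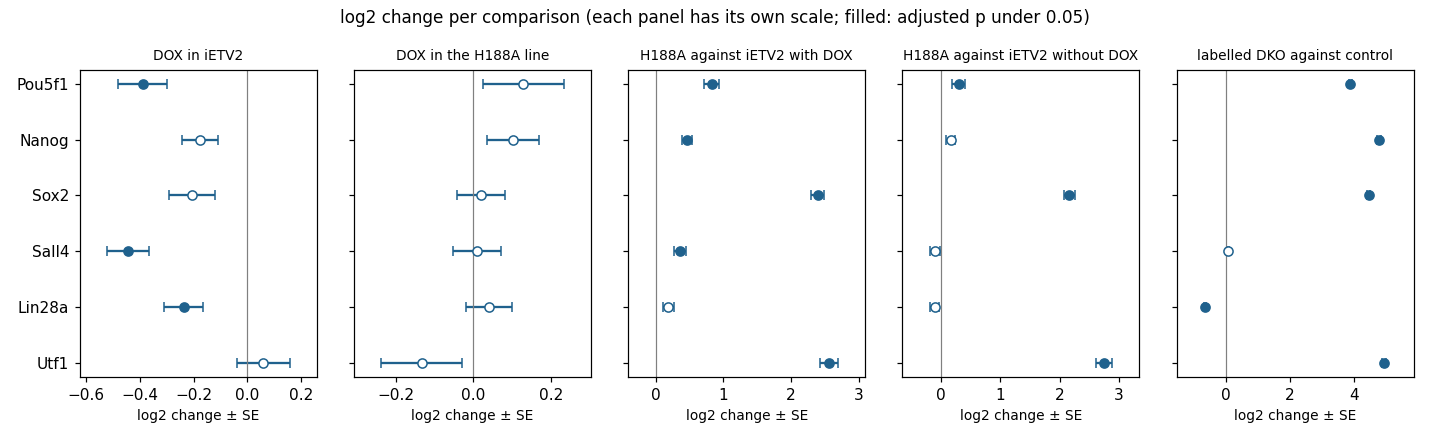
Log2 change ± SE (horizontal axis, each panel on its own scale) of the 6 members in 5 comparisons of 3 libraries against 3, filled where the adjusted p over all genes is under 0.05. The changes with DOX lie between -0.44 and 0.13, while those of Sox2 and Utf1 between the lines exceed 2 and those of Pou5f1, Nanog, Sox2 and Utf1 in libraries labelled DKO exceed 3.

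The H188A line and iETV2 differed in Sox2 and Utf1 with or without DOX. Sox2 was 4.94 times higher by CPM in the H188A line than in iETV2 with DOX, and 4.32 times higher without. Utf1 was 5.56 times higher with DOX and 6.51 times higher without. All 3 libraries of the H188A line exceeded all 3 of iETV2 for both genes in both conditions.

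With DOX, 5 of 6 members were called, all higher in the H188A line, against 37.6% of all genes called and 19.9% called higher. Sox2 differed by 2.39 ± 0.10 on the log2 scale (edgeR, adjusted p = 2.61e-11) and Utf1 by 2.56 ± 0.13 (edgeR, adjusted p = 2.83e-10). Pou5f1 was higher by 0.83 ± 0.11, Nanog by 0.46 ± 0.07 and Sall4 by 0.36 ± 0.08, the last not called with no filter on low counts (adjusted p = 0.175). Lin28a, at 0.19 ± 0.08, did not pass (edgeR, adjusted p = 0.0714).

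Without DOX, 3 of 6 were called, all higher in the H188A line, against 38.3% of all genes called and 19.7% called higher. Sox2 differed by 2.16 ± 0.10 (edgeR, adjusted p = 5.57e-11) and Utf1 by 2.75 ± 0.13 (edgeR, adjusted p = 1.1e-10). Pou5f1 was higher by 0.30 ± 0.11 (edgeR, adjusted p = 0.0444), a call kept in 5 of 12 fits that each left out 1 library. It was lost without any 1 of the 3 iETV2 control libraries, iETV2 DOX replicate 1, H188A control replicate 2 or 3, or H188A DOX replicate 2 (adjusted p = 0.0528 to 0.142), and also with DESeq2's size factors (adjusted p = 0.0774) or with no filter on low counts (adjusted p = 0.667). Nanog (0.17 ± 0.07), Sall4 (-0.10 ± 0.08) and Lin28a (-0.10 ± 0.08) did not pass, although Nanog did without H188A control replicate 1 (adjusted p = 0.041).

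The proportions between members differed accordingly. Utf1 had 54.7 ± 2.62 counts per 100 of Pou5f1 in the H188A line with DOX and 16.7 ± 3.91 in iETV2 with DOX (SD, n = 3 each). Sox2 had 39.2 ± 5.04 per 100 of Pou5f1 in the H188A line with DOX and 13.2 ± 2.64 in iETV2 with DOX. With DOX, Utf1 per 100 of Sox2 was closer, at 141 ± 18.1 for the H188A libraries against 126 ± 5.39 for iETV2, and the ranges overlapped. Without DOX this ratio was apart between the lines, at 157 ± 3.11 for H188A against 104 ± 5.32 for iETV2.

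Naive factors were also higher in the H188A line. Without DOX all 17 rose in the H188A line relative to iETV2 (median 2.52). Dppa5a was higher by 3.21 ± 0.08, Nr0b1, a partner of OCT4 and NANOG, by 4.22 ± 0.10, and Zfp42 by 3.02 ± 0.07. With DOX 16 were higher (median 1.64), among them Nr0b1 (2.83 ± 0.09), Esrrb (2.32 ± 0.09) and Zfp42 (1.72 ± 0.07), and Tbx3 was lower by a log2 change of -1.63 ± 0.09.

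Of the 25 other core and OCT4 partner genes, 20 were higher and 5 lower without DOX (median 0.86), and 21 were higher and 3 lower with it (median 1.06). Dnmt3l, a cofactor of DNA methyltransferases, was at 84.2 ± 0.937 CPM in the H188A line with DOX and 13.6 ± 1.14 CPM in iETV2 with DOX (SD, n = 3 each). With DOX, Gdf3 (2.11 ± 0.07) and Dppa2 (2.19 ± 0.09) were also higher, and Etv4 (-1.11 ± 0.07), Tdgf1 (-0.74 ± 0.06) and Lefty1 (-0.22 ± 0.07) lower. Without DOX the leading genes were Dnmt3l (3.90 ± 0.08), Spp1 (3.11 ± 0.08) and Dppa2 (3.69 ± 0.09) higher, and Etv4 (-1.04 ± 0.07), Lefty1 (-1.08 ± 0.07) and Tdgf1 (-0.34 ± 0.06) lower.

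The remaining lists were mixed between the lines. In the LIN28 and let-7 axis 3 were higher and 5 lower with DOX (median -0.10), and 4 were higher and 3 lower without (median -0.17). Hmga2 was at 61.4 ± 18.5 CPM in the H188A line with DOX and 395 ± 24.9 CPM in iETV2 with DOX (SD, n = 3 each). Among the paralogs 9 of 12 were higher and 1 lower with DOX (median 1.45), and 7 were higher and 1 lower without (median 1.04). The lower one was Sall3 (-2.97 ± 0.10 with DOX and -2.43 ± 0.10 without), and Sox1 was the most changed with DOX among the higher ones named (5.03 ± 0.20), with Pou3f1 at 3.89 ± 0.13 and Sall2 at 1.84 ± 0.08. Of the formative and primed genes 9 were higher and 2 lower with DOX (median 1.36), and 5 were higher and 4 lower without (median 0.08). Otx2 (1.48 ± 0.08) and Zic2 (1.38 ± 0.09) were higher with DOX, and Fgf5 (-1.05 ± 0.09) was lower without.

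Markers of the primitive streak also differed between the lines. The 7 genes of that list summed to 24.2 to 25.8 CPM in the H188A line with DOX and 1380 to 1442 CPM in iETV2 with DOX, and all 7 were lower. Without DOX they summed to 18.8 to 19.9 CPM in the H188A line and 1124 to 1189 CPM in iETV2. The 8 embryonic stem cell markers include the 3 members Pou5f1, Nanog and Sox2, so their sums are not separate from the members' own differences. They summed to 1564 to 1871 CPM in the H188A line with DOX against 986 to 1100 CPM in iETV2 with DOX, and to 1760 to 1818 CPM against 949 to 1006 CPM without. With DOX 7 were called higher and 1 lower, and without it 6 higher and 1 lower. The lower one was Tdgf1, at 231 CPM against 413 CPM with DOX and 246 CPM against 322 CPM without. The neuroectoderm list, a tissue that also uses Sox2, summed to 106 to 112 CPM against 58.1 to 63.6 CPM with DOX, and to 131 to 140 CPM against 105 to 113 CPM without. In that list of 8, 4 were called higher and 1 lower with DOX, and 5 higher and 1 lower without. Nes lay lower in the H188A line, at 36.2 CPM against 52.2 CPM with DOX and 42.4 CPM against 97.1 CPM without. Germ cell markers summed to 67.3 to 81.1 CPM against 33.3 to 34.1 CPM with DOX, and to 75.6 to 81.7 CPM against 30.7 to 33.1 CPM without. Endoderm markers summed to 410 to 861 CPM in the H188A line with DOX against 201 to 210 CPM in iETV2 with DOX, and to 529 to 548 CPM against 218 to 236 CPM without. Most of the H188A sum was Cubn, at 432 CPM with DOX and 422 CPM without, against 10.6 and 2.79 CPM in iETV2. Of the 8 endoderm markers, 3 were called higher and 2 lower in each condition (median log2 change 0.02 with DOX and 0.47 without). Endothelial markers summed to 195 to 199 CPM in the H188A line with DOX against 392 to 403 CPM in iETV2 with DOX, but to 92.1 to 101 CPM against 15.5 to 19.9 CPM without. Among these 6, 1 was called higher and 3 lower with DOX, and 4 were called higher and 1 lower without. Pecam1 and Tek held most of the H188A sum without DOX, at 52.7 and 31.2 CPM against 5.76 and 2.15 CPM in iETV2. Kdr lay the other way there, at 3.26 CPM against 7.92 CPM. With DOX, Pecam1 was at 57.7 CPM against 28.8 CPM in iETV2. Blood markers summed to 36.3 to 37.8 CPM against 332 to 353 CPM with DOX, and to 21.9 to 23.7 CPM against 12.6 to 15.6 CPM without. Runx1 held most of the blood sum in the H188A line without DOX, at 19.7 CPM against 4.88 CPM in iETV2. Of the 6 blood markers, 2 were called higher and 2 lower without DOX (median -0.16), and all 6 were lower with it. The part of all these lists in the members' differences was not tested.

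Across the 18 libraries, the genes whose log2 of TMM-scaled CPM followed each member most closely were ranked by Pearson's r among 13234 expressed genes. The ranking is a description that the differences between the 6 groups largely set. For Sox2 the nearest gene was Utf1 (r = 0.995), and Ahr was also close (0.993). Utf1 was likewise nearest to Sox2, then Slfn9 (0.995) and Ahr (0.994). Pou5f1 was nearest to B3gnt7 and Deptor (0.992 each) and Epb41l4a (0.991). For Nanog these were Hap1 (0.993), Tmem8 (0.990) and Cnpy1 (0.990). Sall4 was nearest to Jph1 (0.974), Cadm1 (0.967) and Cntfr (0.966), and Lin28a to Nmnat1 (0.983), Znrf2 (0.977) and Mex3d (0.972).

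H3K9me3, the mark that KDM4A removes, is linked to silent chromatin. None of the 6 members had a called region within 5 kb of the gene in any of the 6 ChIP libraries, 3 with DOX and 3 without. Of 21887 protein-coding genes, 31%, 27.7% and 27% had one in the DOX libraries and 27%, 27.8% and 27.6% in the libraries without DOX. With 0 members in every library, the count gives no comparison of the groups. The libraries had 39144 to 50838 regions with DOX and 37129 to 43599 without, covering 208 to 295 Mb with DOX and 234 to 296 Mb without.

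The nearest regions lay at like distances with and without DOX for most members. Pou5f1 (chr17:35506032-35510777, GRCm38) had a region 22.6 to 22.8 kb away with DOX and 22.4 to 22.6 kb away without. In DOX replicate 1 that region was chr17:35477601-35483200, with 497 ChIP counts and 267 input counts. Sall4 (chr2:168748332-168767201) had one 21.9 to 22.3 kb away with DOX and 21.9 to 22.5 kb away without. Both genes thus had a region at nearly the same place in all 6 libraries.

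Utf1 (chr7:139943856-139945112) had its nearest region 63.3 to 64.9 kb away with DOX and 63.5 to 65.3 kb away without. These were long regions of 15400 to 20800 bp with DOX and 18000 to 20400 bp without, with the authors' log2 fold change over input between 1.78 and 1.91 with DOX and between 1.37 and 1.64 without. Nanog (chr6:122707489-122714633) had its nearest region 65.1 to 90.5 kb away with DOX and 65.1 to 89.5 kb away without. Sox2 (chr3:34649995-34652461) had none nearer than 100 kb in any library, the farthest being 131 kb in control replicate 1.

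Lin28a (chr4:134003330-134019196) varied most between libraries. Its nearest region lay 10005, 25005 and 68330 bp away in the DOX libraries and 9405, 25405 and 82730 bp away in those without, so near and far values occurred in both groups. Within 20 kb it was the only member with a region, in 1 library of each group.

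**Figure D4:**
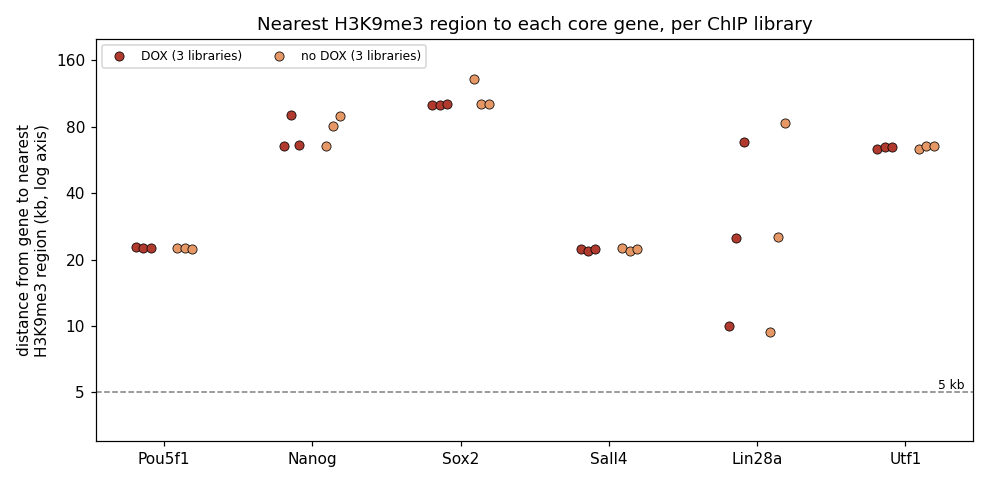
Distance in kb (log axis) from each member to the nearest called H3K9me3 region, with 1 point per ChIP library, DOX to the left of no DOX. All points lie above the dashed line at 5 kb, and Lin28a ranges from 9.41 to 82.7 kb.

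Over all 21887 protein-coding genes, 38.4% had a region within 5 kb in at least 1 library and 19.4% had one in all 6. Such a region was found in at least 1 library for 3 of 17 naive factors, 5 of 25 other core and partner genes, 7 of 12 genes of the LIN28 and let-7 axis, 2 of 12 paralogs and 3 of 12 formative and primed genes. All 6 libraries had one for Rif1 among the core and partner genes and for Trim71 and Dis3l2 of the LIN28 axis.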

How the data were processed

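For 18 RNA libraries the authors deposited 1 table each of raw gene counts. Per the submitters' processing notes, reads were handled with STAR, featureCounts, HTSeq and other tools on GRCm38 (mm10), without roles for each. The strand setting and the ChIP region caller are not given in the sources used here. Per the file headers, each H3K9me3 region, listed by library, has ChIP and input counts, a log2 fold change, a score, a p-value and an FDR. Input libraries were not analysed here.

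Counts were tested in R 4.3.3 with edgeR 4.0.16 (filterByExpr, TMM scaling, quasi-likelihood F test, Benjamini-Hochberg adjustment over all genes tested), after a check on simulated data. Each DOX comparison and the DKO comparison used its own 6 libraries, and comparisons between lines used 12 with 4 group means. SEs were derived from the F statistic. CPM use library totals without TMM factors, whereas likeness used log2(TMM-scaled CPM + 1). The members and lists were chosen with earlier results of these data known. From each list, up to 3 called genes per direction with the smallest adjusted p could be named. The results of 2 genes that met the naming rules are not reported here, although both stayed in all tests and counts. H3K9me3 windows reach 5 kb from either gene end.

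Same-numbered libraries of iETV2 with and without DOX deviated together (r = 0.18, 0.44 and 0.43, numbers from the titles), so the numbers were taken to pair them. DOX replicate 1 was closest to control replicate 2, however, and the pairing was read from these same data. No 2 libraries were identical. Sox2ot overlaps Sox2 and had 1 to 459 counts, and Gm14261 overlaps Sall4 with 6 to 53, so their reads cannot be told apart without strand. Pseudogenes named after members had at most 25 counts in any library. Alternatives were DESeq2's size factors, DESeq2 1.42.0, other count filters, all 18 libraries in 1 fit, a replicate block and leaving out each library. An olfactory receptor covariate was a further alternative only for comparisons that include the H188A line.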

Additional observations from a re-analysis of the deposited data

Results flagged for a closer look

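The response to DOX differed between the lines by an interaction test (the log2 change in the H188A line minus that in iETV2, edgeR, adjusted over all genes) for 2 members, Pou5f1 (0.53) and Sall4 (0.46). The lines come from different experiments, so line and experiment cannot be told apart, and the values were not weighed further.

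The same test passed for related genes. Here higher and lower refer to the response to DOX in the H188A line relative to iETV2, not to the level. Of the 17 naive factors 11 passed, all as lower, beside 6.2% of all genes tested, led by Tbx3 (-4.72), Dppa5a (-1.57) and Nr5a2 (-1.44). By level, 17 naive factors were higher in the H188A line without DOX and 16 with it. Of the 25 other core and partner genes, 6 passed as higher, led by Nr6a1 (1.10), Lefty1 (0.86) and Foxd3 (1.58), and 9 as lower, led by Dppa4 (-1.79), Spp1 (-1.36) and Dppa2 (-1.49). In the LIN28 and let-7 axis Igf2bp2 (0.94) and Hmga2 (-0.78) passed. Of the paralogs, 5 passed as higher, among them Pou3f1 (2.36), Sox1 (1.90) and Sox3 (1.46), and Sall3 (-0.54) as lower. Of the formative and primed genes 8 passed as higher, among them Foxd4 (6.45) and Fgf5 (1.69), and Lef1 (-0.88) as lower.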

How the results depend on the processing

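Of the members called in libraries labelled DKO, Pou5f1, Nanog, Sox2, Utf1 and Lin28a kept their direction and call under every alternative, with 5 to 6 members called without each library in turn. For DOX in iETV2, 5 members were called with a filter of 5 CPM in 3 libraries and 5 with the replicate block, 4 with DESeq2's size factors, 4 with DESeq2 and 2 with no filter, where Lin28a was lost, and 2 to 5 without each library. Of all genes, the filter of 5 CPM called 5575 of 11617, the block 8380 of 22025 and no filter 4577 of 48748. DESeq2's size factors called 5876 and DESeq2 6074 of 22025, against 5939 in the main fit. For DOX in the H188A line no member was called under any alternative or without any library (0 to 0), but the genes called were 423 with DESeq2's size factors, 1443 with DESeq2, 2032 with no filter, 1596 in the fit of 18 libraries, 263 with the replicate block and 122 with the olfactory receptor covariate, against 637, and 81 to 1839 without each library. The interaction called 0 members with no filter, 4 with a filter of 5 CPM and 1 with the covariate, and 0 to 4 without each library. Of all genes, it called 3099 of 51044 with no filter, 4412 of 12183 with the filter of 5 CPM and 3909 of 25516 with the covariate. Between the lines without DOX, 2 members were called with DESeq2's size factors and 2 with no filter, both without Pou5f1, and 4 with the filter of 5 CPM and 4 in the fit of 18 libraries. Of all genes, these 4 fits called 9507 of 25516, 7802 of 51044, 8496 of 12183 and 10445 of 26273. With DOX, 4 members were called with no filter, without Sall4, and 6 with the filter of 5 CPM and 6 in the fit of 18 libraries. Of all genes, these fits called 7522 of 51044, 8056 of 12183 and 10300 of 26273. Without each library, the lines differed in 2 to 4 members without DOX and 5 to 5 with it. Genes called without each library were 4577 to 6731 for DOX in iETV2, 13349 to 14513 for libraries labelled DKO, 2585 to 4112 for the interaction, 8201 to 9738 between the lines without DOX and 7634 to 10029 with DOX. The order of group means held for 2 of 6 members with TMM-scaled sizes and for 4 to 6 without each library. The count of members near an H3K9me3 region was 0 in nearly every ChIP library and setting, with 1 library of each group at 1 within 20 kb, so its difference of 0 says nothing about stability.

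Direction changed only for uncalled members near 0. In the H188A line with DOX, Sox2 was at -0.0517 with the filter of 5 CPM and -0.0574 with the covariate, Sall4 at -0.0612 and -0.0708, and Lin28a at -0.0302 and -0.0397. Without each library, Sox2 ranged from -0.0356 to 0.0767, Sall4 from -0.0556 to 0.0766, Lin28a from -0.0187 to 0.108 and Utf1 from -0.195 to 0.0108, and Utf1 in iETV2 with DOX from -0.0515 to 0.141. The cause was not tested. Replicate numbers did not pair the H188A libraries (r = -0.02, 0.14 and 0.33) or those of the DKO experiment (0.02, 0.02 and 0.04), where the block left 0 and 5 members called. In iETV2 the block called 8380 genes against 5939, and between the lines it changed no member's call. The call of Sall4 in libraries labelled DKO depended on the setting. It was called with no filter (0.17) and with the filter of 5 CPM (0.17), 2 of 6 alternatives. Its adjusted p ranged from 2.07e-06 to 0.363 over those 6 (edgeR or DESeq2).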
